A study of Rattus norvegicus with 10 samples.

Results

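The miR-26 family on these arrays comprised 4 probes of 679 rat miRNA probes, taken by name: the guide strands miR-26a (rno-miR-26a) and miR-26b (rno-miR-26b), and the opposite strands of the same precursors, miR-26a* and miR-26b*. They were measured in the medial prefrontal cortex (mPFC) of wild-type Sprague Dawley rats aged 2 months, 5 given chronic morphine and 5 given saline, with 1 array per rat. Over 5 days morphine was injected intraperitoneally 2 times daily in a dose (mg/kg) that climbed from 10 through 20 and 30 to 40, the dose of the last 2 days, and control rats had saline on the same schedule. Hy3-labeled total RNA of the dissected tissue was read on miRCURY LNA arrays with a single dye and 4 spots per probe, on which the level of a miRNA is read as the spot intensity after subtraction of the local background. Single values were compared between the groups by a two-sided exact permutation test (written as exact p), and values over all probes by limma. In tissue RNA, fewer cells of a type and less RNA per cell cannot be told apart.

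miR-26a and miR-26b are broadly expressed miRNAs that share one seed, the stretch near the 5′ end that pairs with target transcripts. Their genes lie inside genes of the CTDSP phosphatases, which act with the repressor REST to silence neuronal genes in cells that are not neurons, and in zebrafish miR-26b represses the transcript of its own host during neurogenesis. A known target in mammals is Ezh2, a histone methyltransferase, and in hippocampal neurons miR-26a takes part in the lasting strengthening of synapses.

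The mature strands are shown because the 2 guide strands differ in few bases, which bears on how well 2 probes can tell them apart, while the opposite strands serve as a second readout of each precursor. The RNA sequences are from RefSeq (GRCr8), 5′ to 3′, with the seed (bases 2 to 8) in capitals, and all 4 array names matched an entry there.
miR-26a: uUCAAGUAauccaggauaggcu
miR-26b: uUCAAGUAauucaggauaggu
miR-26a*: cCUAUUCUugguuacuugcac
miR-26b*: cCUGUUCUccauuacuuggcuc

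Counted from 1 at the 5′ end of miR-26a, miR-26b carried the substitutions C11U and C21U and was 1 base shorter, so that 19 of 21 shared positions were identical. Among 724 mature rat miRNAs in the RefSeq table, miR-26b was the 1 other with the seed of miR-26a, and no other mature miRNA had the seed of miR-26a* or of miR-26b*. The nearest miRNA outside the family differed from miR-26a at 8 positions and from miR-26b at 7 in an ungapped comparison. The guide strands had 40.9% (miR-26a) and 33.3% (miR-26b) G and C. The sequences of the capture probes were not used here, so how far the miR-26a probe also bound miR-26b, and the reverse, was not tested.

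The precursors are shown to place the strands, with each mature strand in capitals, the guide first and the opposite strand second. Mir26a lies at chr8:127633048-127633137 on the + strand (GRCr8), within the span of Ctdspl on the same strand, and Mir26b at chr9:83425709-83425793 on the + strand, within the span of Ctdsp1, also on the same strand. The gene table used gives spans only, so that exon and intron were not assigned.
Mir26a: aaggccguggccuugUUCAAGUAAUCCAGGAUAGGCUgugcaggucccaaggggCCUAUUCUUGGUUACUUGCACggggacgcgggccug
Mir26b: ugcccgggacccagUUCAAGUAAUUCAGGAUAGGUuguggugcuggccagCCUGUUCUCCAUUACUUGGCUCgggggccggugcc

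The arrays of the 2 groups differed in more than the family, and group and treatment coincide. The median local background of an array was 85 to 352 in the saline group and 63.25 to 142.25 in the morphine group (exact p = 0.127), and 180 to 281 against 260 to 419 rat miRNA probes reached an intensity of 30 (exact p = 0.0159). Neuron-enriched miRNAs, which would define the labeled tissue, were largely below detection on the saline arrays. Of 11 listed, 8 were below 30 on all 5, miR-9, miR-128 and miR-137 among them. On saline arrays miR-124 and miR-138 reached 30 on all 5 and miR-7a on 2. The mean scaled intensity of miR-124 was 956 on saline arrays against 51449 on morphine arrays, and that of miR-138 was 184 against 4518. miR-9*, the opposite strand of miR-9 and not among the 11, reached 30 on all 5 saline arrays. Its mean was 2812 on saline arrays against 14918 on morphine arrays. The summed intensity of the 11 was 596 to 1496 in the saline group against 36052 to 119345 in the morphine group. The summed intensity of 9 mesenchymal and vessel wall miRNAs ran the other way, at 11681 to 42702 on saline arrays against 1869 to 8182 on morphine arrays, with 4 members that fell, 2 that rose and 3 that did not pass (of all 301 probes tested, 11.6% fell and 32.6% rose). Of the 4 that fell, miR-199a-5p had a mean scaled intensity of 7542 on saline arrays against 21.1 on morphine arrays. For miR-21 it was 9184 against 49.2. The 2 that rose, miR-126 and miR-126*, were below 30 on all 5 saline arrays, with means of 1981 and 424 on morphine arrays. The summed intensity of 7 blood and immune cell miRNAs was 28.3 to 221 on saline arrays against 1421 to 8571 on morphine arrays. Of these, miR-146a was below 30 on every array and miR-223 reached it on 1. For 3 oligodendrocyte miRNAs, miR-219-5p, miR-219-2-3p and miR-338, the sum was 0 on every saline array and 177 to 1720 on the morphine arrays. A sum of 0 here stands for low or negative readings: the saline means of the 3 were -101, -101 and -157. For 4 muscle miRNAs, of which miR-1 was below 30 on every array, the sum was 77.7 to 1695 against 27.6 to 194. Apart from the muscle miRNAs, whose sums overlapped, these marker sums separated the groups as the miR-26 guide strands did, and their part in the miR-26 values was not tested. By most of the neuron-enriched markers the arrays labeled saline go against their tissue label. On the same arrays miR-124, miR-138 and miR-9* reached 30 on all 5. Whether these arrays hold mPFC RNA was not tested. Every fold below thus compares the arrays labeled morphine with the arrays labeled saline, and treatment and RNA source cannot be told apart.

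Both guide strands were higher on the arrays labeled morphine than on those labeled saline, miR-26a by 3.55 and miR-26b by 2.96 on the log2 scale, whereas both opposite strands stayed at background in both groups. The 4 spots of a probe were averaged, and arrays were put on one scale through the median of 120 rat miRNA probes, those at 30 or above on all 10 arrays, in intensity units. Values under 30 were set to 30 before log2, so that the fold changes of the miR-26 probes, which were dim in the saline group, depend on that floor.

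The scaled intensity of miR-26a in saline rats 1 to 5 was 58.4, 129, 25.7, 279 and -209, and in morphine rats 1 to 5 it was 819.8, 1076, 1082, 288 and 1531. All 5 morphine arrays lay above all 5 saline arrays, but morphine replicate 4 exceeded saline replicate 4 by little. The mean of the saline group was 56.5 ± 178 (SD, n = 5) and that of the morphine group 959 ± 454 (SD, n = 5; exact p = 0.00794, the lowest possible with 5 against 5). Before scaling, miR-26a was at 30 or above in 3 of 5 saline rats and 5 of 5 morphine rats, and its log2 fold change of 3.55 (standard error 0.688) passed the test (limma, adjusted p = 0.00119 over 301 probes). On this floored scale the ratio was 11.7-fold, which is no bound, since only part of the saline arrays measured miR-26a.

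miR-26b showed the same pattern at a lower margin. Its scaled intensity in saline rats 1 to 5 was 94.9, 149, 104, 49.8 and -150.3, while the 5 morphine rats read 552, 429.9, 984, 151 and 1792. The groups again did not overlap, with saline replicate 2 just under morphine replicate 4. The means were 49.3 ± 117 (SD, n = 5) and 782 ± 639 (SD, n = 5; exact p = 0.00794). miR-26b was at 30 or above in 4 of 5 saline rats and 5 of 5 morphine rats, and its log2 fold change was 2.96 (standard error 0.674, limma, adjusted p = 0.00355), or 7.81-fold on the floored scale.

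**Figure D1:**
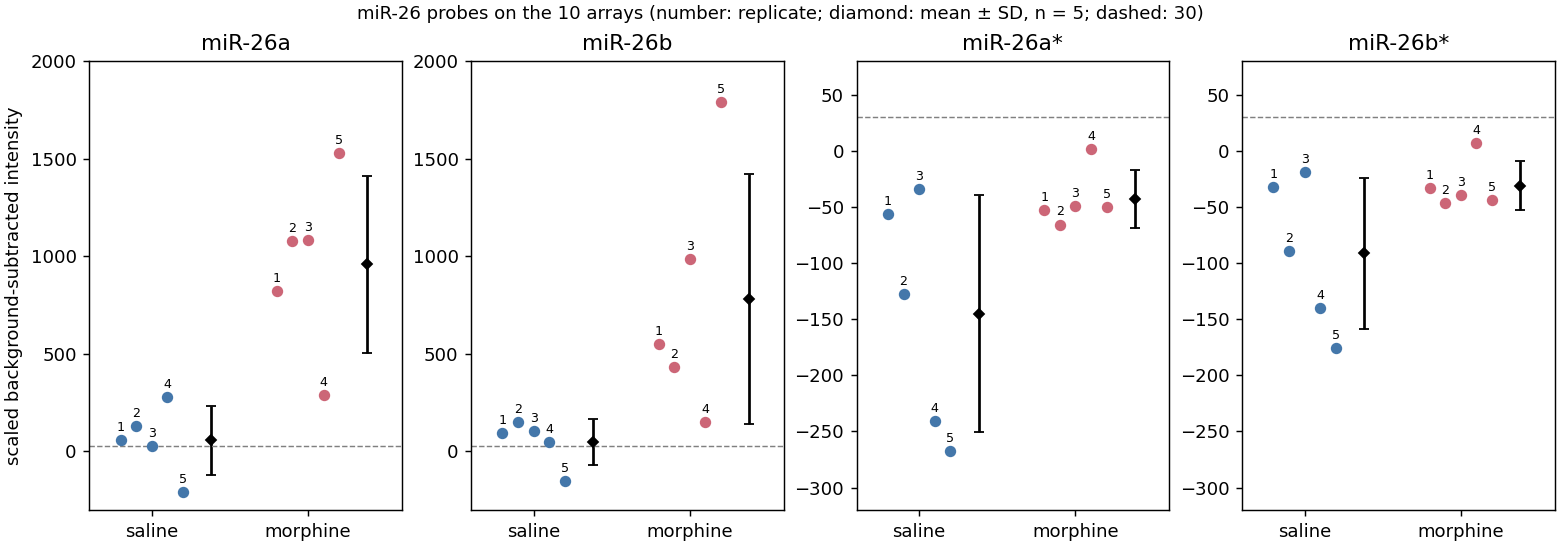
Scaled background-subtracted intensity (vertical axes, intensity units; the panels of the opposite strands have a narrower range) of the 4 miR-26 probes on the 5 saline and 5 morphine arrays, with points numbered by replicate, diamonds for mean ± SD (n = 5) and a dashed line at 30. Every morphine point of miR-26a and miR-26b lies above every saline point, with morphine replicate 4 closest to the saline arrays (288 for miR-26a and 151 for miR-26b), and no point of miR-26a* or miR-26b* reaches 30.

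The opposite strands gave no signal to compare. The background-subtracted intensity of miR-26a* was -230.25 to -34.25 on the saline arrays (median -119.75) and -83.75 to 1.5 on the morphine arrays (median -49). That of miR-26b* was -152 to -19.25 (median -83.75) and -59.25 to 8 (median -38.75). Neither probe reached 30 on any of the 10 arrays, so that both stayed outside the test. The foreground intensities ran with those of the 7 negative-control probes, of which 3 to 7 read above miR-26a* and 3 to 5 above miR-26b* on each array. The values below 0 show a local background around the spot brighter than the spot itself, and the lowest values came from saline replicate 5, the array with the highest background (352).

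The guide strands were also compared in the foreground alone, with no background subtracted. The foreground intensity of miR-26a in saline rats 1 to 5 was 171, 298, 105, 458 and 171, whereas morphine rats 1 to 5 had 1080.3, 1508, 978, 399.75 and 1611. Here the groups overlapped, with saline replicate 4 above morphine replicate 4 (exact p = 0.0159). For miR-26b the foreground was 236.5, 334, 190.5, 310.0 and 226 in the saline rats against 775, 700.0, 901, 243 and 1866 in the morphine rats, with 2 saline arrays above morphine replicate 4 (exact p = 0.0238). Taken over the median negative-control probe of its array, miR-26a stood at 19.3 to 348 in the saline group (median 95.3) and at 328 to 1532 in the morphine group (median 1004). miR-26b stood at 74.8 to 243 (median 160.5) and at 171 to 1787 (median 698). On this baseline miR-26a was brighter than all 7 negative controls on 2 of 5 saline arrays and miR-26b on 4 of 5, and both were brighter than all 7 on 5 of 5 morphine arrays.

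The 4 spots of a probe lie as 2 pairs, in blocks 1 to 18 and in blocks 19 to 36 of the slide, and the pairs of miR-26b disagreed on several arrays. On morphine replicate 2 the background-subtracted miR-26b spots read 1095 and 783 in the first pair and 209 and 107 in the second, and on saline replicate 2 they read 403 and 236 against -44 and -37. miR-26a on the same arrays read 1348, 1359, 1428 and 1355 on morphine replicate 2 and 97 to 141 on saline replicate 2, so its spots lay close together. Averaged over a pair, miR-26b of the first pair was -122 to 319.5 on the saline arrays and 167.5 to 1693.5 on the morphine arrays, which overlap, and of the second pair -137 to 58.5 and 158 to 1793.5, which do not. Over all tested probes with both pair means at 30 or more, the pairs differed over 2-fold for 44.1% of probes on morphine replicate 2 and 22.9% on saline replicate 2, and for 4.92% to 43.4% on the other arrays. With the spots of the first pair alone, all scaled and fitted anew, the log2 fold change was 3.49 for miR-26a (limma, adjusted p = 0.00295) and 2.47 for miR-26b (limma, adjusted p = 0.0180). With those of the second it was 3.74 and 3.65 (limma, adjusted p = 0.00110 and 0.00356).

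**Figure D2:**
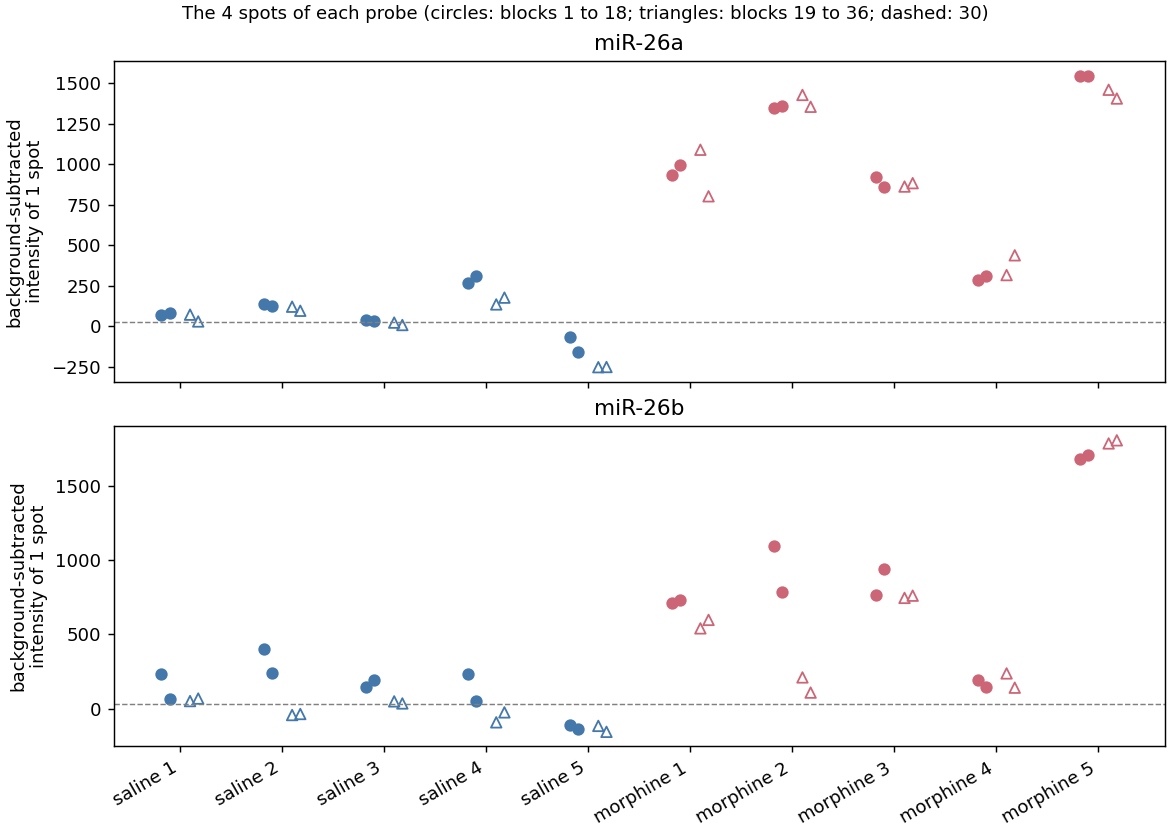
Background-subtracted intensity of each of the 4 spots (vertical axes) of miR-26a and miR-26b on each array (horizontal axis), with filled circles for spots in blocks 1 to 18, open triangles for spots in blocks 19 to 36 and a dashed line at 30. The 4 spots of miR-26a lie together on morphine replicate 2 (1348 to 1428), whereas those of miR-26b on the same array run from 107 to 1095.

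Rises were common on these arrays. Of the 301 rat miRNA probes tested (30 or more on at least 5 of the 10 arrays), 32.6% rose and 11.6% fell (limma, adjusted p under 0.05), 98 and 35 probes, beside the 2 of 2 tested guide strands that rose. This background depends on the filter, which a probe could pass on the 5 morphine arrays alone. With no filter 75 of 679 probes rose and 25 fell, and among the 120 probes at 30 or more on all 10 arrays, where neither guide strand was tested, 19 rose and 14 fell, with a median log2 fold change of -0.21. The morphine arrays lay wholly above the saline arrays for 21.3% of the probes, miR-26a and miR-26b among them, and wholly below for 8.31%. The median log2 fold change of the 301 probes was 0.45. miR-26a lay 3.10 and miR-26b 2.52 above that median, and 88.4% and 84.1% of the tested probes had a smaller log2 fold change than miR-26a and miR-26b. After quantile normalization the split of rises and falls became 69 and 49 and the median -0.25, after cyclic loess 46 and 54 and -0.27, and with normexp background correction 61 and 51 and -0.12. With the foreground alone it was 109 and 118 (median -0.20), and with a negative-control baseline 90 and 86 (-0.22). After quantile normalization, cyclic loess and normexp, miR-26a lay above the median by 3.11, 2.82 and 1.91 on the log2 scale, and miR-26b by 2.21, 2.08 and 1.39.

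**Figure D3:**
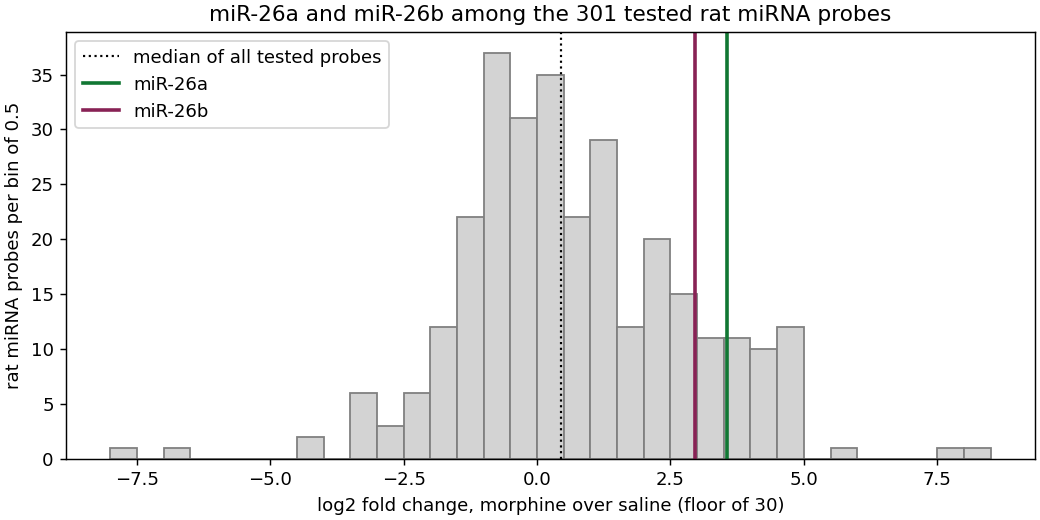
Number of tested rat miRNA probes (vertical axis) by log2 fold change of morphine over saline in bins of 0.5 (horizontal axis), with the median of the 301 probes (dotted line, 0.45) and the positions of miR-26a (3.55) and miR-26b (2.96). Both members lie in the right part of a broad distribution, with 88.4% and 84.1% of probes to their left.

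The rise of miR-26a was not shown to differ in size from that of miR-26b. The log2 ratio of miR-26a over miR-26b within an array, in which the scaling of the array cancels apart from the floor, in saline rats 1 to 5 was -0.70, -0.20, -1.79, 2.48 and 0, and the 5 morphine rats had 0.57, 1.32, 0.14, 0.93 and -0.23. The saline arrays held both the lowest and the highest ratio. The difference of the group means, morphine minus saline, was 0.59 (exact p = 0.468), with a 95% interval from -1.18 to 2.11 by inversion of that test. Both probes were at 30 or more on 3 of 5 saline arrays. Without saline replicate 4, on which miR-26a was bright and miR-26b dim, the difference was 1.23 (exact p = 0.0397). On that array the pairs of spots disagreed for both probes. The miR-26b spots read 231 and 48 in the first pair against -93 and -26 in the second. Those of miR-26a read 269 and 312 against 136 and 178.

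Other miRNAs rose beside the family. The miR-29, miR-30 and miR-101 families are, like miR-26, broadly expressed families with several near-identical members: of the 10 listed, 9 rose, 0 fell and 1 missed the limma threshold (32.6% of all tested probes rose and 11.6% fell), with a median log2 fold change of 3.76 against 0.45 over all tested probes. miR-30b-5p (4.98) and miR-101b (4.19) had the smallest p of these (limma, adjusted p = 6.74e-05 and 5.25e-05). They were at 30 or above in 2 and 0 of the 5 saline rats, so that these values too depend on the floor. miR-101b thus entered the test through the morphine arrays alone and had to differ. miR-29a, of which all arrays reached 30, did not pass (0.69, limma, adjusted p = 0.527).

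The miRNAs tied to REST, the repressor with which the CTDSP hosts act, rose in 7 of 8 tested members, 0 fell and 1 did not pass, against 32.6% and 11.6% of all tested probes, with a median log2 fold change of 4.47. Of the 9 listed, 6 were below 30 on all saline arrays. Of the 8 tested, 5 entered the test through the morphine arrays alone and so had to differ, and the count and the median are a description that the filter and the floor largely set. The neuron-enriched list holds 5 of the 9. miR-9, a miRNA of neurogenesis, was 1 of those 6 and had a fitted value of 8.39, while miR-124, the neuron-specific miRNA, was at 30 or above on all 10 arrays and rose by 5.75 on the log2 scale (limma, adjusted p = 9.31e-08 and 8.33e-07). The let-7 family and miR-98, whose maturation is blocked by Lin28b, a transcript that miR-26 represses in human cells, gave 5 rises, 0 falls and 3 that did not pass of 8 tested, against the same shares over all probes, with a median of 1.79. let-7d rose by 2.90 and let-7e by 1.18 on the log2 scale (limma, adjusted p = 0.0204 and 0.0307), whereas let-7b (-0.24) and let-7i (-0.75), which reached 30 on all arrays, did not pass (limma, adjusted p = 0.796 and 0.524).

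**Figure D4:**
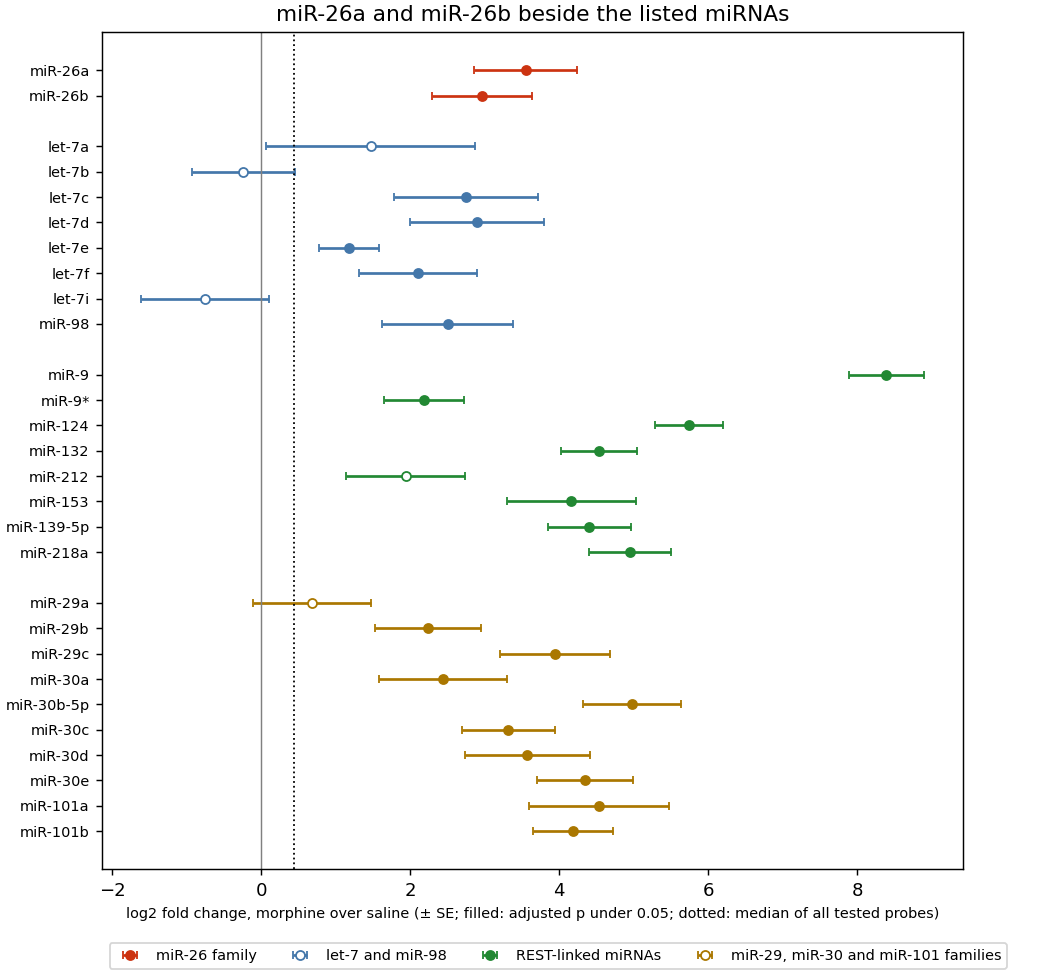
Log2 fold change of morphine over saline with its standard error (horizontal axis, floor of 30, n = 5 per group) for miR-26a, miR-26b and the tested members of 3 other lists (rows), filled where the adjusted p was under 0.05, with a dotted line at the median of the 301 tested probes (0.45). miR-26a (3.55) and miR-26b (2.96) lie among the miR-29, miR-30 and miR-101 families, above every let-7 member and below miR-9 (8.39) and miR-124 (5.75); probes at the floor in the saline group, miR-9 among them, have values set in part by the floor.

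The probes most like the guide strands were found by Pearson's correlation of log2 values over the 10 arrays, as a description: arrays share their hybridization and background, the 2 groups form separate clusters, and probes at the floor share the same value. The 5 nearest to miR-26a were miR-33 (r = 0.962), miR-30e (0.959), miR-466d (0.958), miR-352 (0.957) and miR-347 (0.926), all of which rose (limma, adjusted p of 8.91e-05 to 0.0312). The 5 nearest to miR-26b were miR-29c (r = 0.950), miR-338 (0.942), miR-30e (0.940), miR-322 (0.938) and miR-410 (0.934), which also rose (limma, adjusted p of 8.67e-05 to 0.00200). miR-30e was thus near both guide strands. Probes picked by correlation over 2 separate groups tend to differ between the groups, so the choice largely set the rises of the named probes. miR-338, miR-322 and miR-410 reached 30 on no saline array and entered the test through the morphine arrays alone. The r between miR-26a and miR-26b was 0.845, at rank 37 for miR-26b among the other tested probes.

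Measured within the groups, by deviations from the group means over the 10 arrays, the order changed. miR-26a then went with miR-365 (r = 0.975), miR-30a (0.936), let-7c (0.923), let-7a (0.909) and miR-98 (0.906). Of these miR-365 and let-7a did not pass the test between groups (-1.41 and 1.47 on the log2 scale, limma, adjusted p = 0.144 and 0.439). miR-26b went with miR-29c (0.837), miR-30e (0.820), miR-138-1* (0.812), miR-338 (0.811) and miR-410 (0.806). Since miR-338 and miR-410 reached 30 on no saline array, their r rests mainly on the morphine arrays. The r of the deviations between miR-26a and miR-26b was 0.477, at rank 51, pooled over both groups, with 2 saline values of miR-26a and 1 of miR-26b at the floor. Each group alone has too few arrays for a correlation.

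Leaving out each array in turn kept both calls. The log2 fold change of miR-26a then ran from 3.12 (without saline replicate 5) to 4.03 (without saline replicate 4), with adjusted p-values of 0.000520 to 0.00643 (limma). That of miR-26b ran from 2.53 (without saline replicate 5) to 3.47 (without morphine replicate 4), with adjusted p-values of 0.00117 to 0.0173 (limma). The smallest values of both guide strands came with another background correction. Normexp fits a model to the values after subtraction of the local background, and an offset of 50 was added. With it the log2 fold change was 1.79 for miR-26a (limma, adjusted p = 0.00771) and 1.26 for miR-26b, which did not pass (limma, adjusted p = 0.0537). With the foreground alone it was 2.24 and 1.53 (limma, adjusted p = 0.00352 and 0.0275), and over a negative-control baseline 2.76 and 1.65 (limma, adjusted p = 0.00493 and 0.0298). miR-26b also missed the threshold after quantile normalization (1.96, limma, adjusted p = 0.0693).

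**Figure D5:**
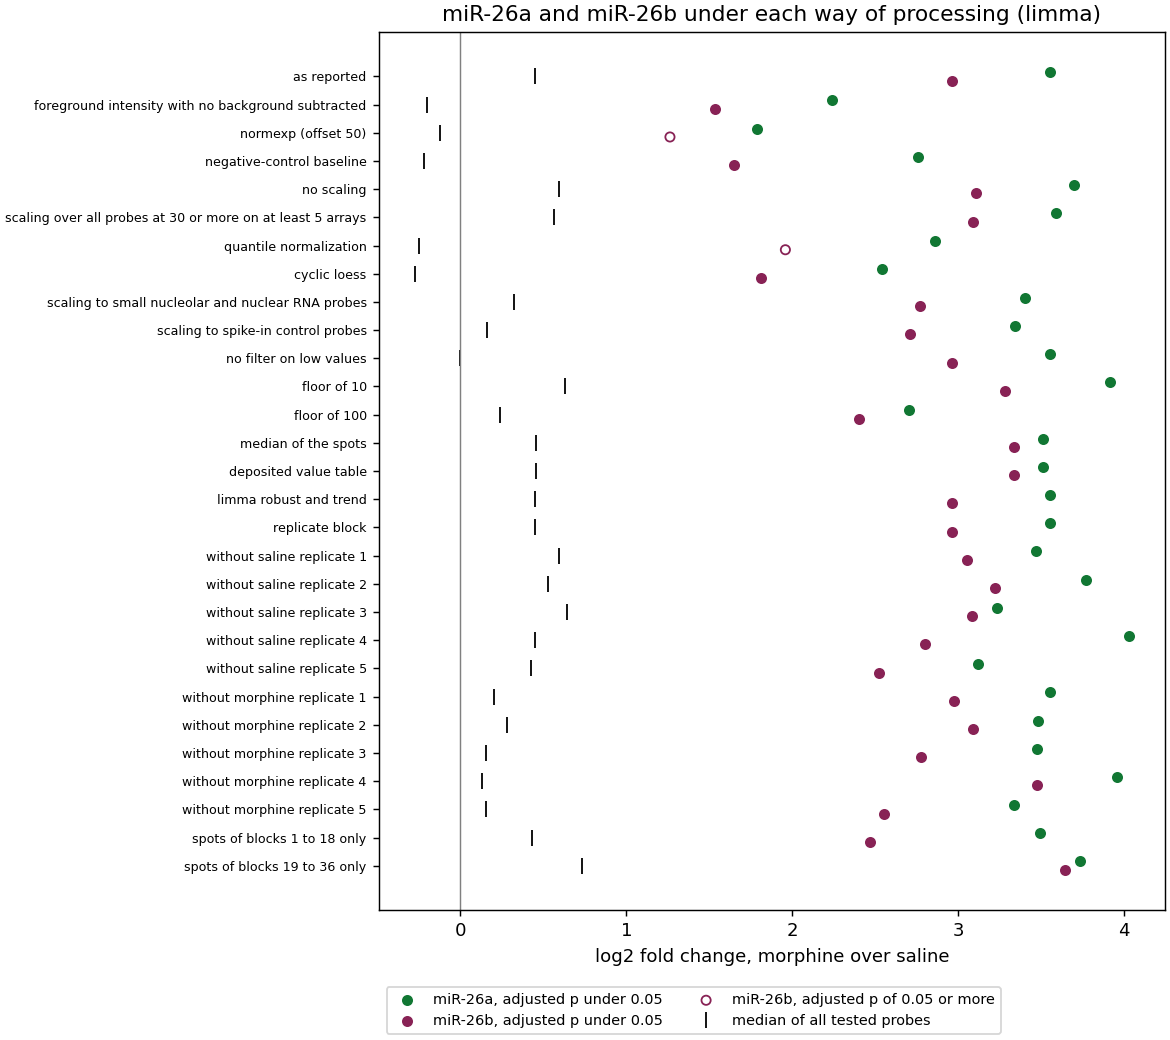
Log2 fold change of morphine over saline (horizontal axis) for miR-26a and miR-26b under each way of processing fitted with limma (rows), filled where the adjusted p was under 0.05, with a tick at the median of all tested probes. Both members lie above that median in every row, and the 2 open points are miR-26b with normexp background correction (1.26) and after quantile normalization (1.96).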

How the data were processed

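The authors labeled total RNA of 10 mPFC samples with Hy3, hybridized it to 1-color miRCURY LNA arrays and extracted spots with GenePix software. In the deposited spot table every spot has a foreground intensity and an intensity after local background subtraction, per the file headers, and arrays are not scaled to each other. The deposited value table gives 1 intensity per probe, which was the median over spots for all 35410 values to within 1e-06. The label field of the samples names biotin, the labeling protocol Hy3. How background was estimated, and slides and scan dates, were not given in the sources used here, and no batch could be examined. Group and replicate came from the sample labels.

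Spot means were scaled to the median of 120 rat probes (30 or above on every array) and floored at 30. The log2 values of 301 probes, at 30 or above on at least 5 arrays, were compared with limma (version 3.58.1, R version 4.3.3, two-sided, Benjamini-Hochberg adjustment, threshold 0.05). Spike-in, small RNA and unannotated probes were not tested. The fit was tested on simulated normal values with no floor applied, so that test does not cover readings set to the floor. Exact permutation tests served for single values, and Python 3.11.15 for sequences and figures. The number of arrays limits the precision. Members, lists, tests and alternatives were chosen with earlier results of these data known. Named were the family, the 5 probes most correlated with each guide strand, over values and over deviations from group means, and from each list the 2 with the smallest p. Other listed miRNAs were named after their values were seen. Alternatives covered background, scaling, filter, floor, spots, the test, a block for replicate number and leaving out each array.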

Additional observations from a re-analysis of the deposited data

Results flagged for a closer look

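After background subtraction, both opposite strands read higher on morphine replicate 4 than on the other 4 morphine arrays. miR-26a* had a scaled intensity of 1.28 there and -65.6 to -48.7 on the others, a gap to the nearest array of 0.747 of the group's range. miR-26b* had 6.81 there and -46.4 to -33.2 on the others, a gap of 0.752 of the range. Both shares exceed Dixon's 95% limit for 5 samples (0.71), which chance passes in about 1 of 20 groups. The median local background of that array was 63.25, the lowest of the 10. The foreground spots were not brighter there: miR-26a* read 63.5 against 62 to 78.5 on the other morphine arrays, and miR-26b* 69.5 against 57.5 to 82.75. Both readings were under 30, and 4 of the 7 negative-control probes read above each probe on that array.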

How the results depend on the processing

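Over 19 other ways of processing apart from left-out arrays, the log2 fold change of miR-26a was above 0 throughout (1.79 to 3.91) and passed in 18, and that of miR-26b was above 0 throughout (1.26 to 3.65) and passed in 16. The median of the spots and the deposited value table, both among the 19, hold the same values and gave the same result. By the methods' t-test, run on ratios with readings at or below 0 dropped, miR-26a had a log2 ratio of means of 2.96 (unadjusted p = 0.00937, adjusted p = 0.116) and miR-26b of 2.98 (unadjusted p = 0.0736, adjusted p = 0.251), and the dropped readings left fewer saline values. miR-26b did not pass with normexp (1.26, limma, adjusted p = 0.0537) or quantile normalization (1.96, limma, adjusted p = 0.0693). The cause was not tested. Called probes numbered 133, against 227 with the foreground alone (679 tested), 33 among the 120 probes at 30 on all arrays (neither guide strand was among these) and 7 with the methods' t-test, by which 32 probes were over 2-fold higher and 25 lower at an unadjusted p under 0.05. They numbered 58 to 118 with each array left out, with 58, 88, 61, 81 and 63 without morphine replicates 1 to 5, where fewer probes were tested, and 102 to 136 with the tested probes kept. That last choice and the fits on 1 pair of spots were added with the data in view. The difference of the log2 ratio of miR-26a over miR-26b was 0.15 to 1.23 with each array left out, the highest without saline replicate 4 (exact permutation test, p = 0.0397). Over 17 other ways of processing it was 0.09 to 1.11 (exact permutation test, p = 0.0556 to 0.921). The lowest came with the second pair of spots alone and the highest with a negative-control baseline. Readings of the opposite strands at 30 or more numbered 0, but 20 with the foreground alone and 20 with normexp, whose offset of 50 lifts every value. With the replicate number as a block, the adjusted p was 0.00733 for miR-26a (3.55) and 0.00933 for miR-26b (2.96), the ratio difference 0.59, and 107 probes were called. Arrays with the same replicate number were not alike in their deviations (correlations -0.40 to 0.05). Such correlations cannot show whether rats were handled in pairs, which the sample labels do not say. Signal over background limits both guide strands in the saline group.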
